A study of Mus musculus with 18 samples.

Results

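Gene deserts are the stretches of the genome that lie farthest from any annotated gene, and they were taken here as autosomal 10 kb tiles of the mouse genome (build NCBIM37) of which every base lay more than 500 kb from any gene of GENCODE vM1. All gene types counted as genes, including pseudogenes and small RNAs. The rule was met by 9269 of the 247224 autosomal tiles. Of these, 5879 held no sequence in the assembly, and the remaining 3390 tiles all held CpGs and are the gene deserts described below. They were compared with 83564 tiles that lay wholly inside a gene, of which 83294 held CpGs, and with 78204 intergenic tiles that overlapped no gene and lay wholly within 100 kb of one. Neither choice used methylation values.

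The data were whole-genome bisulfite libraries of mouse embryonic stem cells, made to follow how CpG methylation is lost once Dnmt1 is deleted. Of the 18 libraries, 9 were control (labelled Wildtype) and 9 Dnmt1 KO. Both genotypes were sampled at days 1, 3, 6, 9 and 11 in 2 biological replicates, except for a lone library each at day 6. In the Dnmt1 KO cells a floxed gene was removed by Cre recombinase that was switched on with tamoxifen, and cells were grown in serum with LIF. The labels gave E14 as the background strain of all 18 libraries, whereas the methods described the floxed cells as C57BL/6. Which line the control cells came from could not be worked out. In comparisons with control, a difference between lines and the effect of the deletion therefore cannot be told apart. No source used here said whether control cells received tamoxifen.

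Each read over a CpG gave a call, methylated or unmethylated, and libraries held 7190722 to 11158414 calls. Over the mitochondrial genome, the background for unconverted cytosines, 0.228% to 0.467% of calls were methylated. Between the start of exon 4 and the end of exon 5 of Dnmt1 (ENSMUST00000004202, chromosome 9, 20744920 to 20746027, 20 CpGs), a segment chosen with earlier results known, control libraries had 2 to 18 calls each, the 2 Dnmt1 KO libraries of day 1 had 2 calls in all, and the 7 later Dnmt1 KO libraries had 0. In the rest of the gene there were 3471 control and 3280 Dnmt1 KO calls. Control day 1 replicate 2 stood apart in coverage, since 0.459% of its autosomal calls fell in deserts, against 0.626% to 0.701% in the 17 other libraries.

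DNMT1 is the maintenance methyltransferase, which copies methylation onto the new DNA strand after replication. Without it, methylation is diluted as cells divide, and only the de novo enzymes DNMT3A and DNMT3B can place it again. Gene deserts are typically poor in CpGs and G+C, replicate late, and often lie against the nuclear lamina, and in somatic cells and tumours such sequence belongs to the partially methylated domains that lose methylation. None of replication timing, lamina contact or chromatin was measured in these libraries.

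The deserts formed 100 unbroken runs of tiles on 17 of the 19 autosomes, with a median of 24 tiles per run, a shortest run of 10 kb and a longest of 1350 kb. Chromosome 3 held the most tiles (555), followed by chromosome 1 (505) and chromosome 14 (363), and chromosomes 2 and 4 held none. A desert tile had a median of 43 CpGs, against 83 inside genes, 70 in the near-gene intergenic tiles and 74 over all autosomal tiles with CpGs. The G+C content was 37.2% in deserts and 42.6% inside genes. The deserts made up 1.42% of the tiles with CpGs and held 164320 CpGs, and each library had 45046 to 71903 calls in them.

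To show what the measured sequence looks like, 200 bases of the 3 longest deserts are printed 5′ to 3′ from the NCBIM37 plus strand, with CpGs in capitals. Each is centred on the CpG nearest the middle of the desert that had calls in at least 9 libraries, so these stretches hold more CpGs than their deserts do on average. They lie at chr14:81605485-81605684, chr1:144327799-144327998 and chr3:42646243-42646442, in no gene, and each holds 2 CpGs.
desert on chromosome 14: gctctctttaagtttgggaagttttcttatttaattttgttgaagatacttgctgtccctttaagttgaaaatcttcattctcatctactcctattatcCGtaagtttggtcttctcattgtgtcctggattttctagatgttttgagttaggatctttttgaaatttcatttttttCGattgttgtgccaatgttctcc
desert on chromosome 1: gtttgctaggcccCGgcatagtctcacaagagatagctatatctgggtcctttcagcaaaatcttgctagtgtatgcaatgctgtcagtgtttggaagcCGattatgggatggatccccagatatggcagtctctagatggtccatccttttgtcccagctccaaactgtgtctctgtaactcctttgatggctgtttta
desert on chromosome 3: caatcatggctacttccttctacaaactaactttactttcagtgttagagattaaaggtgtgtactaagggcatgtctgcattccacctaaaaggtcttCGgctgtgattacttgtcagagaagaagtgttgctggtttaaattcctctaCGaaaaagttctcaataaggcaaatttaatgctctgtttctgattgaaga

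Single CpGs carried few calls. The CpG at base 100 of the chromosome 14 sequence had 5 of 6 calls methylated over the 9 control libraries and 1 of 6 over the Dnmt1 KO libraries of days 3 to 11. In the chromosome 1 sequence the same counts at base 100 were 4 of 8 and 0 of 3, where a count of 0 allows a level of up to 70.8% (95% exact binomial interval). In the chromosome 3 sequence they were 6 of 6 and 2 of 6. The other CpG of the chromosome 14 sequence, at base 178, went the other way, with 2 of 4 in control and 2 of 3 in Dnmt1 KO. That of the chromosome 1 sequence, at base 14, had 4 of 5 and 2 of 4, and that of the chromosome 3 sequence, at base 151, had 4 of 4 and 0 of 6. Levels are therefore given only for sums of calls over many CpGs, as the percent of calls that were methylated.

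In control cells deserts were highly methylated at every day. The desert level was 83.5% and 81.4% in the replicates of day 1, 80.8% and 80.3% at day 3, 84.2% at day 6, 82.5% and 80.0% at day 9, and 78.1% and 78.3% at day 11. In Dnmt1 KO it was 74.5% and 75.3% at day 1, 29.1% and 30.8% at day 3, 15.7% at day 6, 15.6% and 16.4% at day 9, and 14.4% and 15.5% at day 11. Every Dnmt1 KO library lay below every control library. The widest 95% exact binomial interval of a desert level was 28.7% to 29.5%, in Dnmt1 KO day 3 replicate 1, so counting error was small beside these differences; the intervals cover counting error only.

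Averaged over the 5 days, the desert level was 81.3% in control and 30.3% in Dnmt1 KO, a difference of -51.0 percentage points (two-sided exact permutation of genotype within days, p = 0.00077, adjusted p = 0.0015, n = 9 and 9). This is the smallest p that the 2592 arrangements can give. The adjustment (Benjamini-Hochberg) covered the 8 single-value tests made. Day 1 differed by -7.53 points, day 3 by -50.6, day 6 by -68.4, day 9 by -65.3 and day 11 by -63.2.

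Inside genes the level fell less. It was 81.3% and 79.3% in control at day 1, 79.5% in both replicates of day 3, 83.1% at day 6, 81.3% and 79.1% at day 9, and 75.1% and 75.3% at day 11. In Dnmt1 KO it was 73.3% and 73.9% at day 1, 35.7% and 37.1% at day 3, 26.7% at day 6, 27.1% and 27.9% at day 9, and 27.2% and 27.7% at day 11. Deserts were thus above genes in all 9 control libraries and in both Dnmt1 KO libraries of day 1, and below genes in the 7 later Dnmt1 KO libraries, from day 3 to day 11.

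**Figure D1:**
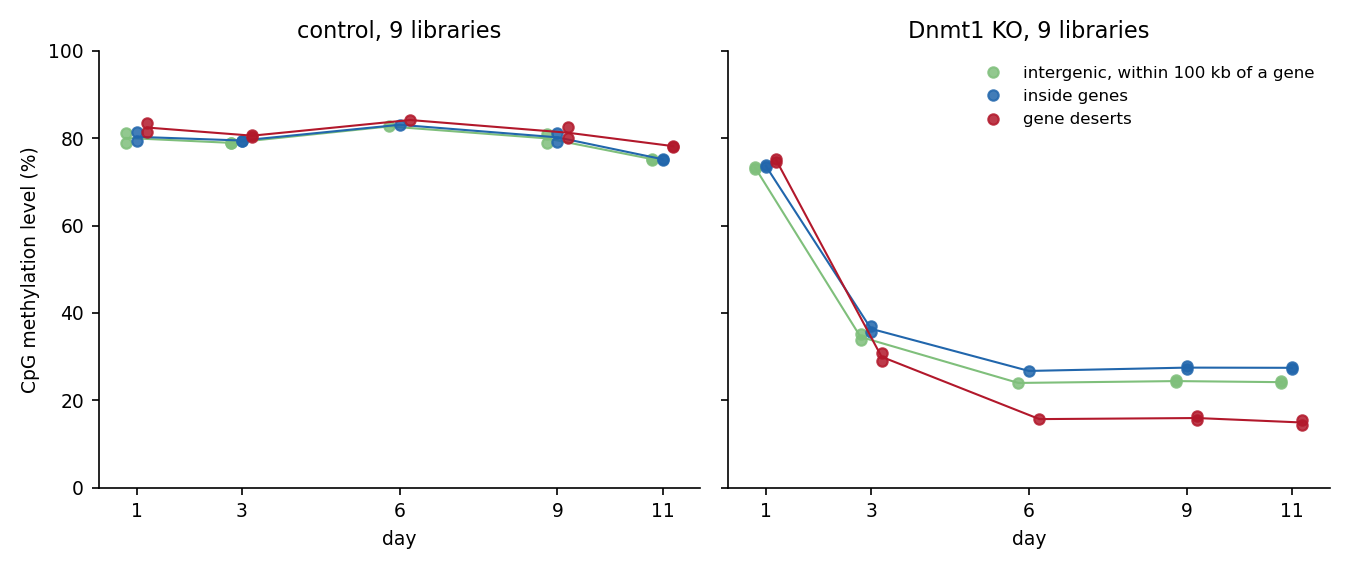
CpG methylation level (%, vertical axis) against day, with control libraries on the left and Dnmt1 KO libraries on the right; each point is a library, lines join the means of a day, and the 3 classes are set slightly apart sideways. In control, deserts lie on or just above the other classes, and in Dnmt1 KO from day 3 on they lie below both, at 15.5% on average over days 6 to 11 against 27.3% inside genes.

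The gap between deserts and genes was taken within each library, as desert level minus genic level. In control it was 1.74 ± 0.853 points (SD, n = 9), from 0.854 to 3.02, and positive in 9 of 9 libraries (two-sided exact sign-flip permutation over 512 arrangements, p = 0.0039, adjusted p = 0.0052). This test takes libraries of the same day and of successive days as independent, and all share the same deserts. Its p therefore speaks only to repeatability over libraries. The size of this small control gap depended on which tiles were used and how they were averaged. It was 0.677 points (sign-flip permutation, adjusted p = 0.031) when genic tiles within 2 kb of a gene start were left out. As a mean over tiles with at least 10 calls, in deserts and genes alike, it was 0.441 points (adjusted p = 0.11). In Dnmt1 KO at days 3 to 11 the gap was -10.3 ± 2.71 points (SD, n = 7), from -12.8 to -6.21, and negative in 7 of 7 libraries (exact permutation p = 0.016, adjusted p = 0.016, the smallest p that 128 arrangements allow). Day 1 was left out because the loss was still under way, a choice made with earlier results of these data known. Its Dnmt1 KO libraries had positive gaps, of 1.18 and 1.35 points, and the loss also went on after day 3. The shared sign of the 7 libraries therefore depends on that choice.

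The gap differed between genotypes by -9.72 points as a mean over days (1.68 in control, -8.04 in Dnmt1 KO; exact permutation p = 0.00077, adjusted p = 0.0015), and all 9 Dnmt1 KO libraries had a lower gap than every control library of their day. The difference grew with time, with -0.858 points on day 1, -7.52 on day 3, -12.1 on day 6, -12.6 on day 9 and -15.5 on day 11. At day 11 part of the difference came from control, where the gap had widened to 2.9997 points from 1.06 at day 9. As a log2 ratio of desert to genic level, the difference between genotypes was -0.57 (exact permutation p = 0.00077, adjusted p = 0.0015).

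As a share of the control level of the same day, deserts retained 90.9% ± 0.675 at day 1 and 37.2% ± 1.51 at day 3 (SD, n = 2 each), and 19.2% ± 0.708 over days 6 to 11 (n = 5). Tiles inside genes retained 91.7% ± 0.539, 45.8% ± 1.18 and 34.8% ± 1.87. The 5 desert values of days 6 to 11, between 18.5% and 20.1%, did not overlap the genic values, which lay between 32.2% and 36.9%.

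Most of the fall in deserts came between days 1 and 3, and little was measured after day 6. Between days 1 and 3 the mean desert level in Dnmt1 KO dropped by 44.9 points, to 40.03% of its day 1 value, and inside genes it dropped by 37.2 points, to 49.4%. Between days 3 and 6 it dropped by a further 14.3 points in deserts, to 52.4% of the day 3 value, whereas genes dropped by 9.64 points, to 73.5%. From day 6 to day 9 the mean changed by 0.243 points in deserts, within the spread between replicates of day 9 (SD 0.558). From day 9 to day 11 it changed by -1.02 points, where day 11 had an SD of 0.724. Both desert values of day 11 lay below both of day 9, with the nearest libraries 0.117 points apart. This step was not tested over libraries. Inside genes the corresponding changes were 0.762 and -0.0456 points.

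Near-gene intergenic sequence was intermediate in Dnmt1 KO from day 3 on, while at day 1 it was the lowest of the 3 classes, at 72.9% and 73.5%. Its level over days 6 to 11 lay between 23.9% and 24.7% in the 5 libraries, above the 14.4% to 16.4% of deserts. The gap between deserts and near-gene intergenic tiles differed between genotypes by -7.71 points (1.95 in control, -5.76 in Dnmt1 KO; exact permutation p = 0.00077, adjusted p = 0.0015, lower in 9 of 9 Dnmt1 KO libraries than in every control library of their day). This comparator, like deserts, lay outside genes, but it was not matched to them on CpG number. Its tiles had a median of 70 CpGs, against 43 in deserts, and the part of this in the gap was not tested.

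Intergenic tiles were next sorted by distance from the nearest gene, which is a description of the rule's own measure and was not tested. In Dnmt1 KO at days 6 to 11 the mean level was 23.5% ± 0.414 within 10 kb of a gene, 24.9% ± 0.345 from 10 to 50 kb and 23.9% ± 0.299 from 50 to 100 kb (SD, n = 5). It was 22.2% ± 0.335 from 100 to 250 kb, 18.5% ± 0.377 from 250 to 500 kb and 15.6% ± 0.718 from 500 to 1000 kb. The 84 tiles over 1000 kb from any gene stood at 11.7% ± 0.897. Beyond 50 kb the level was thus lower in each class than in the class before it, and from 100 kb on the ranges of neighbouring classes did not overlap.

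Beyond 100 kb, control levels changed far less with distance than Dnmt1 KO levels did, while within 100 kb they changed more. Over days 6 to 11 they were 76.4% ± 3.66 within 10 kb, 79.2% ± 3.29 from 10 to 50 kb and 80.6% ± 3.12 from 50 to 100 kb. From 100 kb on the means also fell from class to class, but only from 81.2% ± 2.97 to 80.9% ± 2.84 at 250 to 500 kb, 80.6% ± 2.67 at 500 to 1000 kb and 80.0% ± 2.60 over 1000 kb, with ranges that overlapped. All classes come from the same 5 libraries, so these ranges also hold differences between days. Changes with distance within a library were not tested. The number of CpGs per 10 kb fell with distance as well, from 82.4 within 10 kb to 61.8 from 100 to 250 kb, 48.5 from 500 to 1000 kb and 45.8 over 1000 kb. At the limit that defines a desert, the 2670 tiles between 400 and 500 kb had 17.2% ± 0.546 in Dnmt1 KO at days 6 to 11, and the 1474 tiles between 500 and 600 kb had 15.8% ± 0.789.

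**Figure D2:**
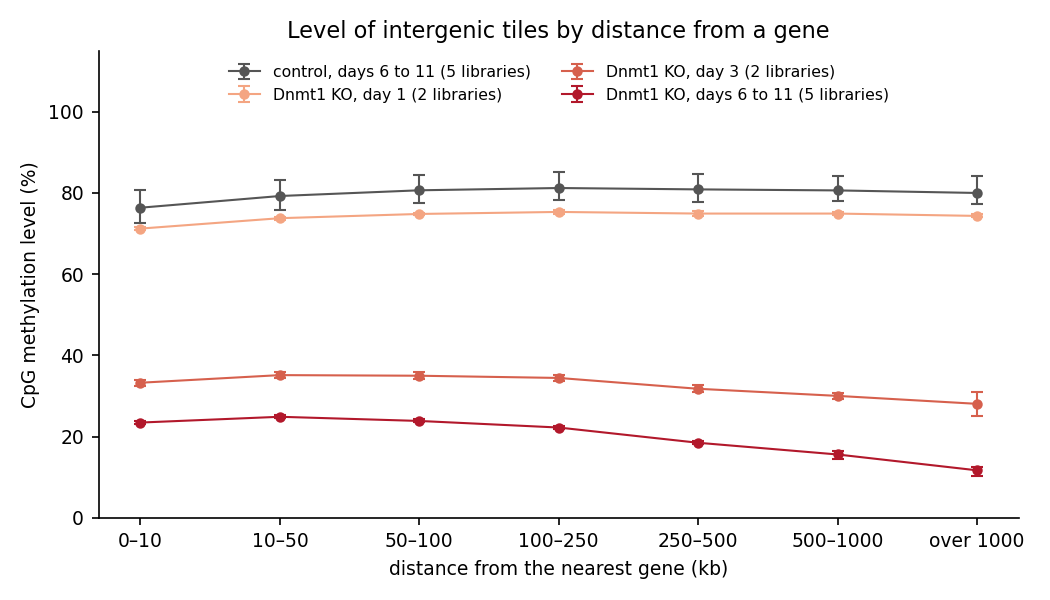
CpG methylation level (%, vertical axis) of intergenic tiles in classes of distance from the nearest gene (kb, horizontal axis, classes of unequal width); points are means over libraries and bars run from the lowest to the highest library. The Dnmt1 KO curve of days 6 to 11 descends from 24.9% at 10 to 50 kb to 11.7% over 1000 kb, while the control curve stays between 76.4% and 81.2%.

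Because deserts hold fewer CpGs, levels were compared at the same local CpG number, counted within 250 bp on either side with the CpG itself included. Isolated CpGs, with no other in that window, made up 10.04% of desert CpGs and 2.60% of genic CpGs. In Dnmt1 KO at days 6 to 11 they had 11.3% ± 0.913 in deserts and 19.03% ± 0.643 inside genes (SD, n = 5). At 3 CpGs the levels were 13.9% ± 0.553 and 23.5% ± 0.545, and at 5 to 6 CpGs 17.96% ± 1.45 and 28.1% ± 0.472. In each of these classes the libraries of the 2 parts did not overlap, and deserts were lower.

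The 2 parts lay closest in the class of 10 or more CpGs. At 7 to 9 CpGs deserts had 22.4% ± 1.38 and genes 30.6% ± 0.452, and at 10 or more 26.6% ± 1.02 and 28.9% ± 0.910, with ranges of 25.03% to 27.5% and 28.1% to 30.4% that still did not overlap. CpGs with 10 or more in the window made up 12.3% of desert and 24.8% of genic CpGs. In control at days 6 to 11 this class stood at 81.7% ± 1.498 in deserts and 72.1% ± 3.67 inside genes, whereas isolated CpGs had 77.7% ± 2.88 and 79.2% ± 3.47.

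**Figure D3:**
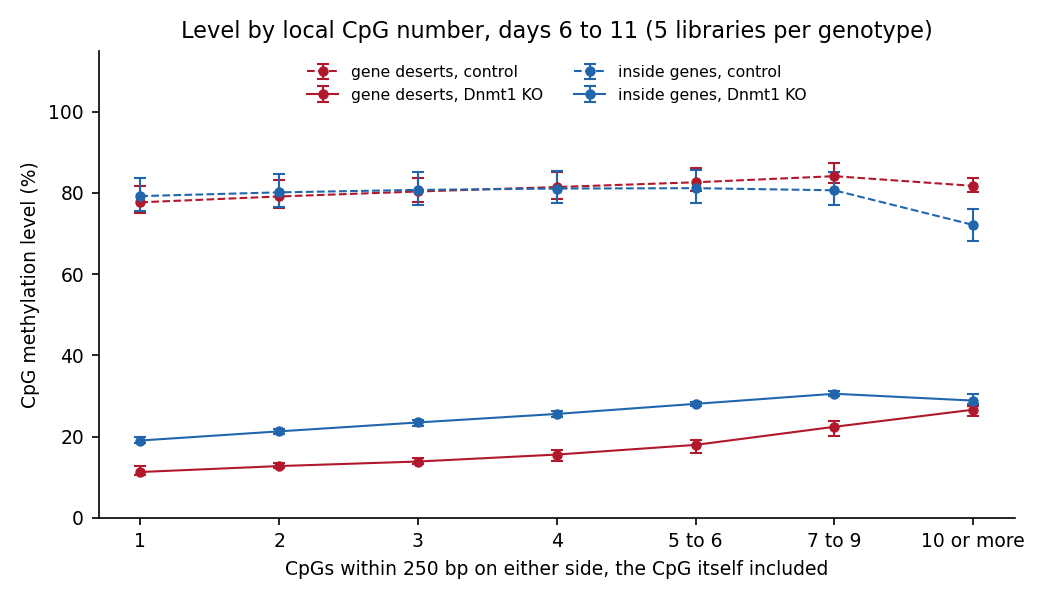
CpG methylation level (%, vertical axis) at days 6 to 11 against the number of CpGs within 250 bp on either side (horizontal axis), for deserts and tiles inside genes; points are means of 5 libraries, bars run from the lowest to the highest, solid lines are Dnmt1 KO and dashed lines control. In Dnmt1 KO the desert curve lies below the genic curve in every class, from 11.3% against 19.03% at isolated CpGs to 26.6% against 28.9% at 10 or more.

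The bases beside the CpG were a further difference in sequence. CpGs with A or T on both sides (ACGA and its reverse complement TCGT, and the palindromes ACGT and TCGA, so that both strands give the same class) made up 35.2% of desert CpGs and 27.8% of genic CpGs. Their Dnmt1 KO level at days 6 to 11 was 13.1% ± 0.612 in deserts and 25.2% ± 0.493 inside genes (SD, n = 5). CpGs with neither base A or T had 19.1% ± 1.04 and 28.3% ± 0.485. The lowest of the classes examined was the isolated CpG with A or T on both sides, at 9.92% ± 1.04 in deserts and 16.97% ± 0.714 inside genes.

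Genic calls were then weighted to the desert mix of local CpG number and flanking bases, library by library. This genic level was 24.0% ± 0.486 in Dnmt1 KO at days 6 to 11 (SD, n = 5), against 27.3% ± 0.478 unweighted and 15.5% ± 0.697 in deserts. The gap between deserts and weighted genes differed between genotypes by -6.36 points (0.755 in control, -5.60 in Dnmt1 KO; exact permutation p = 0.0031, adjusted p = 0.0049), with 7 of 9 Dnmt1 KO libraries below every control library of their day and the day 1 libraries the exception. Day 1 gave 0.0110 points, day 3 -4.45, day 6 -7.70, day 9 -8.28 and day 11 -11.4.

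Matching on the number of CpGs in the whole 10 kb tile took away more of the gap. Genic tiles weighted in this way stood at 30.03% and 31.6% in Dnmt1 KO at day 3, 18.6% at day 6, 18.7% and 19.5% at day 9, and 18.9% and 19.4% at day 11, while deserts had 29.1% and 30.8%, 15.7%, 15.6% and 16.4%, and 14.4% and 15.5%. Deserts were lower in all 7 of these libraries. At day 1 they were higher than the weighted genic tiles in both genotypes: in Dnmt1 KO 74.5% and 75.3% stood against 73.3% and 74.3%, and in control 83.5% and 81.4% against 82.6% and 80.8%, and the gap was wider in both Dnmt1 KO libraries than in either control library. The difference between genotypes in this gap, over all 5 days, was -2.42 points (exact permutation, adjusted p = 0.0062), so its size depended on how genic sequence was matched. This matching used the tile in place of the local window and left out the flanking bases, and the parts of these 2 changes were not separated.

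Single desert tiles showed the same shift of the whole distribution. Among the 3367 desert tiles with at least 20 calls in the 5 pooled Dnmt1 KO libraries of days 6 to 11, the median level was 13.7%, the quartiles were 9.85% and 18.5%, and the outer deciles 6.78% and 23.9%. The 82652 tiles inside genes had a median of 25.8%, with quartiles of 19.2% and 31.9%. In all, 25.5% of desert tiles were below 10%, against 4.55% of genic tiles, and 3.27% were above 30%, against 31.9%. Near-gene intergenic tiles had 8.01% below 10% and 19.4% above 30%, and all autosomal tiles 9.67% and 22.1%. In control at the same days the medians were 81.0% in deserts and 81.9% inside genes. A desert tile had a median of 82 calls in these 5 libraries and a genic tile 178, so counting error widened the desert distribution more.

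**Figure D4:**
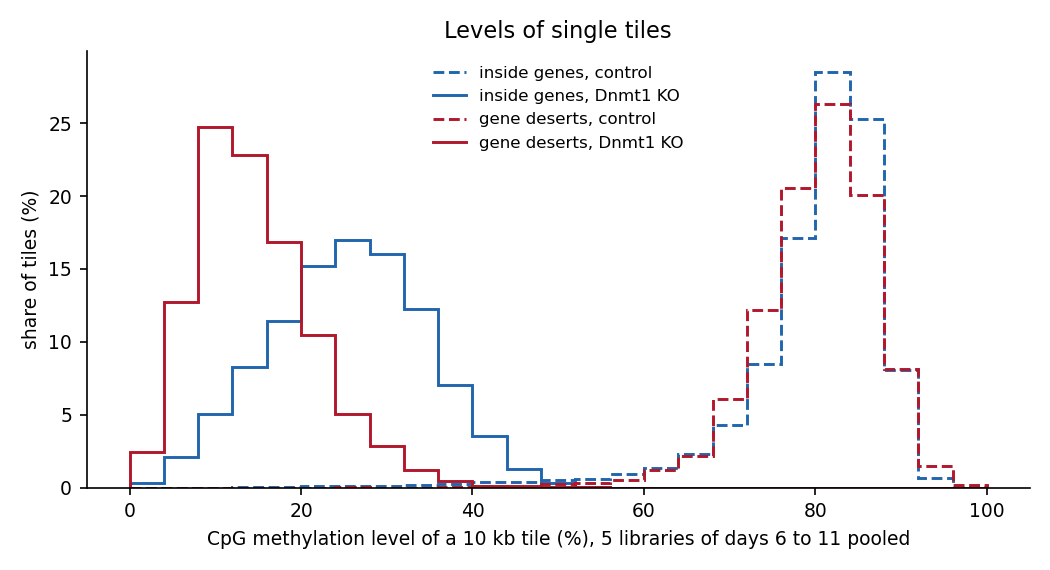
Share of tiles (%, vertical axis) in each 4-point class of methylation level (%, horizontal axis), for desert and genic tiles with at least 20 calls in the pooled libraries of days 6 to 11; solid lines are Dnmt1 KO and dashed lines control. In Dnmt1 KO the desert distribution is centred on 13.7% and the genic one on 25.8%, and in control the 2 parts have medians of 81.0% and 81.9%.

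Tile by tile, 802 of the 3390 desert tiles had at least 10 calls in every library and were tested with a quasi-binomial model over all 170714 autosomal tiles that passed this filter. These tiles had a median of 52 CpGs, against 43 for all desert tiles, and do not stand for the sparser ones. Calls needed both a change of 10 points or more and p under 0.05 after Benjamini-Hochberg adjustment over these tiles. At day 1, 0 desert tiles were called, where 0.0252% of all tiles tested were called (43 tiles). An unadjusted p under 0.05 was found in 48 desert tiles. Limma on the levels called 0 desert tiles, with 46 under 0.05, against 73 called over all tiles tested. The median difference in desert tiles was -7.31 points, with a median standard error of 10.7 points. Over all tiles tested the median difference was -6.89 points. Tiles under an unadjusted 0.05 were not counted outside deserts.

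From day 3 on nearly all desert tiles were lower in Dnmt1 KO, as were nearly all tiles of the genome. At day 3, 776 of the 802 desert tiles (96.8%) were called, against a background of 96.4% of all tiles tested. At day 6 it was 785 (97.9%, background 97.0%), at day 9 800 (99.8%, background 98.7%) and at day 11 797 (99.4%, background 98.2%). All of these desert tiles were lower in Dnmt1 KO. The desert shares are close to the background and are no result about deserts. The size of the difference was larger in deserts: day 3 had a median of -50.5 points, day 6 of -68.4, day 9 of -64.6 and day 11 of -64.1, against -44.3, -58.3, -54.4 and -49.4 points in the 69380 genic tiles.

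Between successive days in Dnmt1 KO, 741 of the 802 desert tiles (92.4%) were called lower at day 3 than at day 1, where 92.3% of all tiles tested were called. The median difference was -44.2 points in desert tiles and -37.9 points over all tiles tested. From day 3 to day 6, 0 desert tiles were called (background 0.00176% of all tiles tested, which is 3 tiles). The median difference was -14.0 points in desert tiles, against -10.1 points over all tiles tested. Of the desert tiles, 98 had an unadjusted p under 0.05. Limma called 0 desert tiles, with 125 under 0.05, against 2 called over all tiles tested. Counts under an unadjusted 0.05 were made for desert tiles only, so they have no background here. From day 6 to day 9, 0 were called (background 0% of all tiles), with 25 under an unadjusted 0.05, and 22 with limma. From day 9 to day 11 it was again 0 (background 0%), with 28, and 26 with limma. In both of these steps limma called 0 of all tiles tested. In control, 0 were called between days 9 and 11 (background 0.0744%), with 19 under an unadjusted 0.05. Limma called 0 desert tiles there, with 14 under 0.05, against 160 called over all tiles tested. With a median standard error of 12.5 points for the step from day 3 to day 6, a loss of that size was not detectable in a single tile, while the sum over deserts showed it.

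Of the 100 deserts, 75 had at least 100 calls in every library and together held 3287 of the 3390 tiles. With the calls of days 6 to 11 pooled, their Dnmt1 KO levels ran from 9.24% to 25.1%, with a median of 14.8% and quartiles of 13.5% and 16.2%. All 75 lay below the 27.3% of tiles inside genes, and 74 of them did so in each of the 5 libraries. In control the 75 deserts ran from 68.6% to 85.04%, with a median of 81.1%, and 62 lay above the 79.3% of genic tiles, though only 22 did so in each of the 9 libraries.

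The deserts differed among themselves by more than counting error. The SD over deserts was 2.9999 points in Dnmt1 KO, where counting alone gives 0.751, and 2.40 points in control, where it gives 0.617. Counting alone leaves out further spread between libraries. In the tile model the variance was at the median 1.644 times that of counting. Over the 75 deserts, which share the same libraries, Pearson's r between the Dnmt1 KO levels of days 9 and 11 was 0.733 and between days 9 and 6 it was 0.801. The Dnmt1 KO level had an r of 0.632 with the number of CpGs per 10 kb, 0.633 with G+C content, 0.448 with the control level and -0.0847 with the length of the desert. These are descriptions across deserts, which are not independent replicates.

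**Figure D5:**
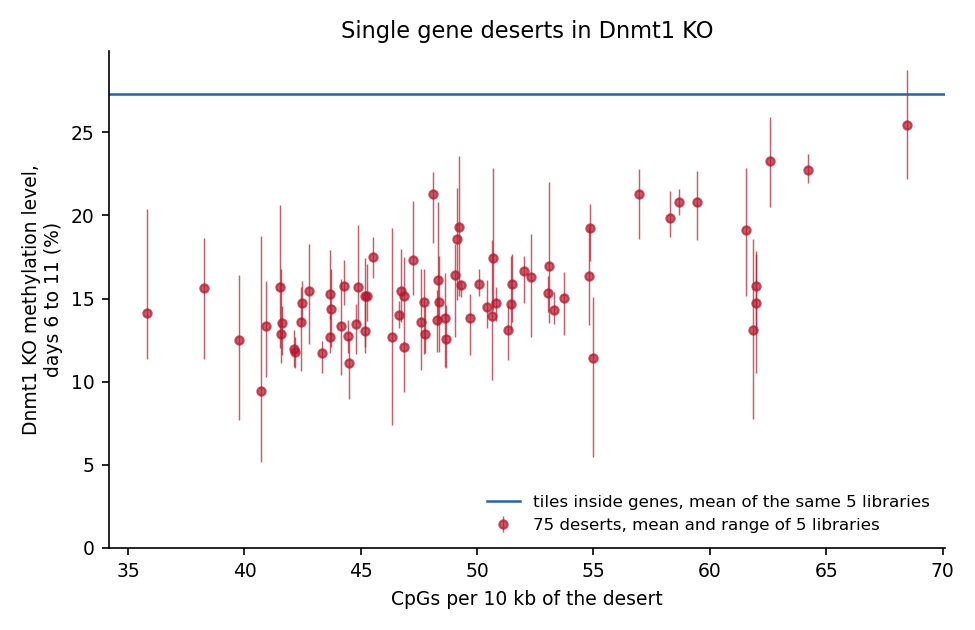
Dnmt1 KO methylation level at days 6 to 11 (%, vertical axis) against CpGs per 10 kb (horizontal axis) for the 75 deserts with at least 100 calls in every library; points are means of 5 libraries, bars run from the lowest to the highest, and the line marks tiles inside genes at 27.3%. The desert means lie between 9.45% and 25.4%, and the 3 highest have 62.6 to 68.5 CpGs per 10 kb.

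The longest desert, chr14:80930001-82280000 (1350 kb), lay between Olfm4 (ENSMUSG00000022026.5), which encodes olfactomedin 4, and a U1 snRNA gene. Its Dnmt1 KO level was 13.3% at day 6, 13.6% and 15.5% at day 9, and 11.8% and 14.3% at day 11, while its 9 control libraries lay between 77.3% and 82.8%. At day 1 it still had 72.6% in Dnmt1 KO, and at day 3 29.9%.

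The second longest, chr1:143720001-144940000 (1220 kb), lay between a Y_RNA gene and Cdc73 (ENSMUSG00000026361.7), which encodes a subunit of the PAF1 transcription complex. It had 12.7% at day 6, 12.3% and 11.4% at day 9, and 10.8% and 11.7% at day 11, against 75.3% to 84.004% in control. The third, chr3:42070001-43220000 (1150 kb), lay between D3Ertd751e and a 7SK gene. It had 13.0%, then 13.3% and 13.7%, then 11.9% and 11.7% at the same days, against 76.1% to 84.5% in control. In these 3 deserts the Dnmt1 KO libraries of days 6 to 11 were far below every control library and lay close together.

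The next 7 in length gave the same picture. The desert chr10:15210001-16330000 between a SNORA17 and a U6 gene had 15.1% ± 1.39 in Dnmt1 KO at days 6 to 11 (SD, n = 5), and chr7:100830001-101820000 between Gm15501 and a 7SK gene had 12.7% ± 0.957. On chromosome 18, the desert from 28970001 to 29930000, next to Pik3c3 (ENSMUSG00000033628.9, the class III phosphoinositide 3-kinase of autophagy), had 15.9% ± 0.626, and chr3:71120001-72040000 between Gm6634 and a U2 gene had 11.7% ± 0.734.

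The desert chr8:30830001-31690000 lay between Unc5d (ENSMUSG00000063626.4), a netrin receptor gene, and Dusp26 (ENSMUSG00000039661.8), a dual-specificity phosphatase gene, and had 15.8% ± 1.54. The desert chr14:85440001-86210000, next to Pcdh17 (ENSMUSG00000035566.6), a protocadherin gene, had 14.8% ± 0.906. The desert chr15:70020001-70770000, next to Fam135b (ENSMUSG00000036800.7), had 14.4% ± 1.83. Over these 10 longest deserts the control level, with all days pooled, lay between 78.4% and 82.6%.

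Among the 75 deserts with at least 100 calls in every library, the 3 highest by the Dnmt1 KO level of day 9, which chose them, were chr8:105890001-106120000, chr1:76140001-76640000 and chr16:5830001-6300000. The days with no part in the choice gave like values. The chromosome 8 desert, which ends 505.5 kb from Cdh5 (ENSMUSG00000031871.8, VE-cadherin), had 26.3% at day 9, 22.2% at day 6 and 26.0% at day 11. The chromosome 1 desert, next to the pseudogene Gm5257, had 23.6%, 22.7% and 23.2%, and the chromosome 16 desert, next to Rbfox1 (ENSMUSG00000008658.8, a splicing regulator expressed in neurons), had 23.3%, 22.7% and 22.1%. These 3 deserts had 68.5, 62.6 and 64.2 CpGs per 10 kb, the 3 highest CpG numbers of the 75, and a G+C content of 40.1% to 43.3%. The 8 deserts next in CpG number were divided: chr10:64970001-65130000 and chr19:49380001-49600000, with 62.0 CpGs per 10 kb each, had 14.5% and 15.7% with days 6 to 11 pooled, and chr15:19450001-19610000, with 61.9, had 13.4%. The 5 others, with 56.9 to 61.6 CpGs per 10 kb, had 19.3% to 21.4%, above the upper quartile of the 75. These 8 were picked out after their values were seen, and the part of CpG number in the levels was not tested.

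The 3 lowest of the 75 at day 9 were chr16:61970001-62070000, chr14:107670001-108270000 and chr3:23620001-23730000. The chromosome 14 desert, of 600 kb, had 11.22% at day 9, 11.6% at day 6 and 10.9% at day 11. The 2 others were 100 and 110 kb long with as few as 112 and 106 calls in a library, and their values were less steady: 7.8%, 5.19% and 13.4% on chromosome 16, and 11.5%, 13.4% and 17.01% on chromosome 3. By library, the chromosome 16 desert had 9.22% and 6.49% at day 9 and 7.59% and 18.8% at day 11, so its higher day 11 value rested on replicate 2.

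Among the 75 deserts with at least 100 calls in every library, the lowest in control was chr3:77410001-77790000 (380 kb, 38 tiles), which is named here after its values were seen. It had 68.6% with all control libraries pooled, from 63.0% to 76.1% by library, while the next lowest of the 75 had 75.4%. In Dnmt1 KO it started at 61.5% at day 1 and stood at 12.7% over days 6 to 11, below the median desert.

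The gap to genes was found on each of the 17 autosomes that hold deserts. Deserts were below genes of the same chromosome in each of the 5 Dnmt1 KO libraries from day 6 on. The mean of desert minus genic level ran from -13.9 points on chromosome 17 (139 desert tiles) to -6.24 points on chromosome 16 (60 tiles). Of the chromosome 16 tiles, 47 form the desert chr16:5830001-6300000, which had 22.7% over days 6 to 11. Chromosome 3, with the most desert tiles, had 14.7% ± 0.719 in deserts and 26.9% inside genes (SD over libraries, n = 5), and chromosome 1 had 16.1% ± 0.569 and 26.8%. In control the gap was not of 1 sign: it was positive in 9 of 9 libraries on chromosomes 7, 8, 9, 10, 15, 18 and 19, and averaged -0.820 points on chromosome 5 and -0.991 points on chromosome 6, where deserts were higher in 3 and 1 of 9 libraries.

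Coverage moved slightly with genotype. The share of autosomal calls that fell in deserts was 0.622% in control and 0.659% in Dnmt1 KO as a mean over days, a difference of 0.0369 points (exact permutation p = 0.0054, adjusted p = 0.0062, higher in 8 of 9 Dnmt1 KO libraries than in every control library of their day). Without control day 1 replicate 2, the library that stood apart, the difference was 0.0203 points (adjusted p = 0.012), and without either Dnmt1 KO library of day 1 the difference was about as large, at 0.0344 and 0.0395 points, but no longer passed (adjusted p = 0.15 and 0.11). Calls per CpG were 0.356 per library in deserts and 0.456 inside genes. Copy number, read alignment and replication were not examined, and the part of this shift in the methylation differences was not tested.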

How the data were processed

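Per the labels, DNA of 18 libraries was bisulfite sequenced. Per their methods, the authors aligned reads with Bismark to NCBIM37 and removed duplicates. The submitters' processing notes gave Bismark 0.12.3, whereas the methods named another version. The deposited tables hold counts of methylated and unmethylated calls per cytosine, not normalized, and the deposited percent computed from them, which was not used further. Calls outside a CpG (0.101% to 0.120% of cytosines) were left out, both strands added up, and calls summed per 10 kb tile.

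Members and lists were chosen with earlier results of these data known. Regions named were the 10 longest deserts, the 3 highest and 3 lowest at Dnmt1 KO day 9 among deserts with at least 100 calls in every library, and any said to be chosen afterwards.

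Library values were tested by exact permutation (Python 3.11.15). Tile counts were fitted in R 4.3.3 by a quasi-binomial model, 1 level per genotype and day, with dispersion moderated in limma 3.58.1. The lone day 6 libraries were assumed to vary like the others. The p used the level pooled over both groups, since separate levels gave too many false calls in simulated data. Alternatives were other distances, gene sets, filters, weightings and matchings, limma, a replicate block and leaving out each library. Whether replicate numbers pair the libraries is not known. Deviations of same-numbered libraries correlated over tiles at 0.00038 to 0.0019. Such a correlation does not see a shift shared by whole libraries, so it cannot decide this.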

Additional observations from a re-analysis of the deposited data

Results flagged for a closer look

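The desert minus genic gap had opposite signs in the genotypes. It was positive in all 9 control libraries, at 0.854 to 3.02 points, and negative in the 7 Dnmt1 KO libraries from day 3 on, at -12.8 to -6.21 points. The difference between genotypes over all 5 days was -9.72 points (exact permutation p = 0.00077, adjusted p = 0.0015). Both Dnmt1 KO libraries of day 1 had positive gaps, of 1.18 and 1.35 points. The control side is small and less steady: it was 0.441 points as a mean over tiles (adjusted p = 0.11) and 0.680 points beyond 1000 kb (adjusted p = 0.25), the median control tile of days 6 to 11 had 81.0% in deserts and 81.9% inside genes, and the mean control gap was negative on chromosomes 5 and 6.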

How the results depend on the processing

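Of 284 comparisons with an alternative over 18 results, 264 kept their direction and their side of the threshold or stayed within 1.5 times the count. For single values it was 187 of 192, and 0 reversed. For counts it was 77 of 92, many of them a count of 0 that stayed at 0. A reversal was not defined for counts. The desert level, its gaps to all genic, context-weighted genic and near-gene tiles, and the log2 ratio kept direction and call under every alternative run. The difference between genotypes in the gap to all genic tiles ranged from -11.6 to -7.97 points. Weighting each desert with at least 100 calls equally, an alternative chosen after seeing the data, gave -9.71. For the gap to context-weighted genic tiles the range was wider for its size, from -7.55 to -2.42 points, the latter with matching on CpGs per tile. For the gap to near-gene tiles it was -9.59 to -6.08.

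The control gap was 0.680 points beyond 1000 kb (adjusted p = 0.25) and 0.441 points as a mean over tiles (adjusted p = 0.11). The desert share of calls differed by 0.000809 points beyond 1000 kb (adjusted p = 0.13), where few tiles remain; leaving out single libraries gave 0.0203 to 0.0536 points.

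Counts of desert tiles moved with the number tested, 802 in the report. With a limit of 250 kb (4778 desert tiles tested), 4637, 4683, 4770 and 4752 were called against control at days 3, 6, 9 and 11, and 4425 at Dnmt1 KO day 3 against day 1. With at least 5 calls (2568 desert tiles) the counts were 2421, 2443, 2549, 2546 and 2267, and with at least 20 calls (24 desert tiles) 22, 24, 24, 24 and 20. Leaving out single libraries gave 689 to 721, 783 to 797 and 778 to 785 at days 3, 9 and 11, and 588 to 639 for the step to day 3. The share called over all tiles tested was not taken under these settings. The counts therefore have no background here and are no result about deserts.

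Whether replicate numbers pair the libraries is not known. With the replicate block, the gap between genotypes was -9.72 points (exact permutation, adjusted p = 0.0063) and the desert level -51.0 points (adjusted p = 0.0063). No call of a single-value test changed. Counts of tiles moved: for Dnmt1 KO day 3 against day 1, limma called 657 desert tiles with the block and 769 without. Over all tiles tested it called 143523 and 160416. At a median of 16 calls per desert tile and library, single tiles and CpGs are limited by depth.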
